A study of Mus musculus with 18 samples.

Results

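The genes described are 8 chromatin regulators that are recurrently mutated in human medulloblastoma, examined in the mouse for binding by NFIA and NFIB, transcription factors of the nuclear factor I (NFI) family: Kmt2d, Kmt2c, Crebbp, Ncor1, Brpf1, Ldb1, Ep400 and Smarca4. They were chosen by name, 8 of the 20665 protein-coding genes on the 19 autosomes. Sites were given to them by position. In each library the 30000 autosomal peak summits with the highest scores were kept, here called top summits, and each went to the nearest protein-coding gene span within 100 kb. A summit is the 1-base position of a called peak, and its score is the −log10 of a p or q value from the authors' peak caller.

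Binding was mapped by CUT&Tag: a transposase led to the bound protein by an antibody cuts the DNA around it, which is then sequenced. The 18 libraries came from 3 stages in the mouse cerebellum, with 6 libraries each: granule neuron progenitors (GNPs) of 7-day-old mice, hyperplasia of 28-day-old mice, and medulloblastoma of adult mice (tumors). All cells were purified on a Percoll gradient, 100000 per library. A stage comprised 3 preparations, each with an NFIA and an NFIB library. The labels and design text name no genotype for the tumor model or the GNPs, and the cell line named in the design was not analysed here. Nothing says that preparations came from separate animals, so the spread behind each p-value is that of preparations and may be technical. Stage changed together with age, and the tumor titles carry 3 dates that no other stage shares, so stage, age and, for tumors, date cannot be told apart. The names inside the deposited data carry the other target in 6 libraries and another replicate number in 12, and each library is named here by its sample label. In such bulk samples, fewer cells with a bound site and less binding per cell cannot be told apart either.

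The proteins of these genes act on nucleosomes. KMT2C and KMT2D are the large methyltransferases that place the mono-methyl mark on lysine 4 of histone H3 at enhancers, and CREBBP and the BRPF1 complexes acetylate histones. NCOR1 is the scaffold that brings the deacetylase HDAC3 to repressors, and LDB1 joins LIM-domain transcription factors and holds enhancers to promoters. EP400 and SMARCA4 are the ATPases of the TIP60 and BAF remodelling complexes. NFI proteins bind DNA as dimers and guide the maturation of granule neurons, the lineage from which Sonic hedgehog medulloblastoma arises.

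The promoters of Ep400 and Smarca4 are shown because theirs were the 2 windows, of 11 searched at the 8 genes, in which every one of the 18 libraries had a top summit. The windows run from 250 bases before to 30 after the annotated start, are read 5′ to 3′ on the gene's own strand, and come from RefSeq, build GRCm38.p6 (mm10). Capitals mark the stretch that holds all top summits of the 18 libraries in the window. It is 112 bases long at Ep400 (chr5:110770688-110770967, minus strand) and 198 bases long at Smarca4 (chr9:21615919-21616198, plus strand).
Ep400: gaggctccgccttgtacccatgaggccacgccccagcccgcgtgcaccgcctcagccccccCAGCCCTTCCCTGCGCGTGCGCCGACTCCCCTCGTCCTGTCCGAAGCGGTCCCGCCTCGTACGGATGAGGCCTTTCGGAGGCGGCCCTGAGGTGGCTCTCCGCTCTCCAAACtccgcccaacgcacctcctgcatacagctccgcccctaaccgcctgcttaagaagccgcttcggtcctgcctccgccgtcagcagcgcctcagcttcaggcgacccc
Smarca4: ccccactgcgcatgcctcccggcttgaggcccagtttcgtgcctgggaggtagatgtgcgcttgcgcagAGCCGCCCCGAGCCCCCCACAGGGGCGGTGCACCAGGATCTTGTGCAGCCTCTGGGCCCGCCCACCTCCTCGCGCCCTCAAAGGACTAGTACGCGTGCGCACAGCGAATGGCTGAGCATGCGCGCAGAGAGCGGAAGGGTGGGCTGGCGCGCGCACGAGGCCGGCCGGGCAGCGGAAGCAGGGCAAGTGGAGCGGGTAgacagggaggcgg

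The NFI core motif TTGGC, searched on both strands (GCCAA), was in neither of these windows over their whole 300 bases. It was in 3 of the 11 windows at the 8 genes, those at the starts of Kmt2c and Crebbp and at the most downstream of the 3 starts of Ldb1, and in 48.0% of the 20085 promoter windows of all autosomal protein-coding genes in the table. Those 3 windows at the 8 genes held no top summit, and the 5 windows that held a top summit lacked the core motif. The full palindrome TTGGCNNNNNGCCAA, which holds the core motif on each strand, was in 0 of the 11 and in 0.0349% of all windows. No base sequence was used for the sites outside these windows.

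Pooled over the 8 genes, top summits lay mainly at promoters, but not at every gene. More lay further inside Crebbp in each stage. The same held for Ldb1 in GNPs and tumors, Kmt2d in GNPs and Smarca4 in tumors. Over the 18 libraries the 8 genes received 198 top summits, of which 125 (63.1%) lay within 1 kb of an annotated start. Another 69 lay further inside the gene span and 4 outside it. Promoters took 28.8% of the top summits of all genes. For genes without a start in the table, the share over all genes counts summits within 1 kb of either gene end. By stage, promoters took 67.2% of 67 summits in GNPs, 66.7% of 60 in hyperplasia and 56.3% of 71 in tumors, against 30.5%, 29.3% and 26.5% over all genes. The share at the 8 genes ran from 50.0% to 76.2% over the 9 preparations. It fell to 43.9% with a promoter window of 500 bp, and to 24.7% of 870 summits when all listed summits were taken in place of the top 30000. The share over all genes was not computed under these settings.

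Of the 8 genes 4, Kmt2c, Brpf1, Ep400 and Smarca4, had a promoter summit in all 18 libraries, which was the case for 10.5% of the 16457 genes with a start in the table. Ncor1 had one in 13 libraries, Crebbp in 10, Kmt2d in 4 and Ldb1 in 3. Top summits of all libraries were also widened by 100 bp on each side and merged into 41998 regions hit by at least 3 libraries. Of these, 15 lay at the 8 genes and held 182 of the 198 summits. The 4 that had a top summit in all 18 libraries were the promoter regions of the same 4 genes, and 14.6% of all regions had one in all 18.

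**Figure D1:**
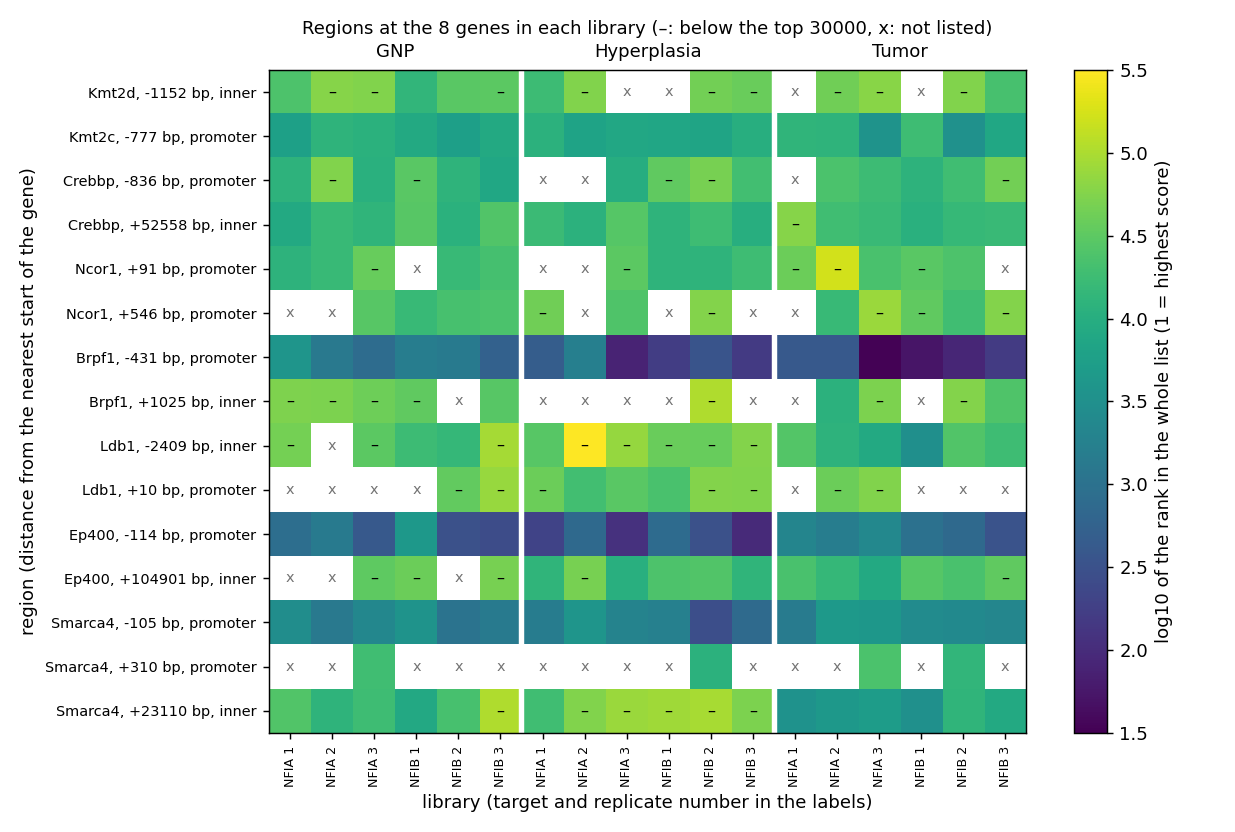
Rank of the best summit in each of the 15 regions at the 8 genes (rows, named by distance in bp from the nearest start) in each of the 18 libraries (columns, by stage), on a log10 colour scale where 1 is the highest score. A dash marks a summit below the top 30000 and a cross a region with no listed summit; the promoter regions of Brpf1, Ep400 and Smarca4 are the darkest rows in all stages, and the inner region of Smarca4 is ranked low in 5 of the 6 hyperplasia libraries.

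Levels were compared between genes only per length. Brpf1, the shortest but 1 of the 8 genes, had 0.627 top summits per library and 10 kb of the area nearest to it. This was higher than in 88.9% of the 15585 genes with any top summit and an area of at least 5 kb. The area of Brpf1 was 19.5 kb. Promoter summits were 6 of its 7 top summits in GNPs, 6 of 6 in hyperplasia and 8 of 9 in tumors. The other 7 genes had between 0.0750 (Ncor1) and 0.202 (Smarca4) per 10 kb, where the median gene had 0.181.

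Of the 5 genes tested for a change in the number of top summits between stages, 1, Ep400, was called. Its call was lost in 16 of 22 alternatives in hyperplasia against GNPs and in 10 of 21 in tumors against GNPs. The test was limma on log2(summits + 0.5) with the 2 libraries of a preparation summed, and genes entered it if they averaged 2 or more summits per preparation. Of the 8 genes 5 were tested, and Kmt2d, Ncor1 and Ldb1 had means below 2. Ep400 passed an adjusted p of 0.05 as higher in hyperplasia and as higher in tumors than in GNPs. In the same fit 0.116% of 8589 genes passed as higher in hyperplasia than in GNPs and 0.140% as higher in tumors than in GNPs. In tumors against hyperplasia 0 of the 5 passed, where 0.0116% of all tested genes passed as higher and 0.0466% as lower. In that contrast 1 of the 5, Smarca4, had an unadjusted p under 0.05 in limma's fit across all genes, as did 11.3% of all tested genes.

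**Figure D2:**
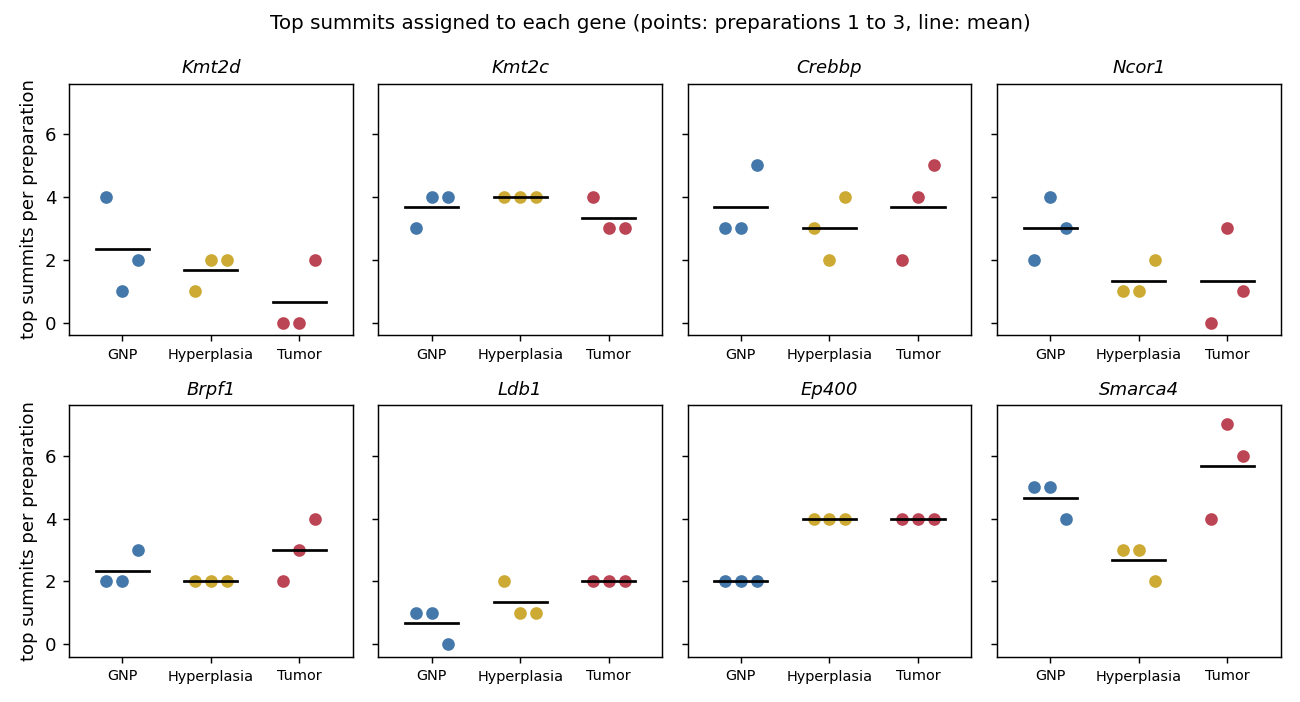
Top summits assigned to each of the 8 genes (vertical axis, NFIA and NFIB libraries of a preparation summed) in the 3 preparations of each stage (points) with the stage mean (line). Ep400 had 2 in every GNP preparation and 4 in every other one, and Smarca4 was lowest in hyperplasia.

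Kmt2d (chr15, 98831669 to 98874077), one of the pair of enhancer methyltransferases, had few top summits. It had 4, 1 and 2 in the GNP preparations, 1, 2 and 2 in hyperplasia, and 0, 0 and 2 in tumors. The stages overlapped, and the gene was below the level tested. With the filter on low values dropped, its log2 fold change in tumors against GNPs was −1.58 (SE 0.69, limma adjusted p = 0.399). Its only region hit by at least 3 libraries lay 1152 bases upstream of the start in the promoter table and inside the annotated span (chr15, 98872029 to 98872531). That region held a top summit in 3 of 6 GNP libraries, 1 of 6 hyperplasia libraries and 1 of 6 tumor libraries.

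Kmt2c (chr5, 25271795 to 25498855), its paralog, had most of its summits at its promoter. It had 3, 4 and 4 top summits in GNPs, 4, 4 and 4 in hyperplasia, and 4, 3 and 3 in tumors, and the stages overlapped. The log2 fold change was −0.12 in tumors against GNPs (SE 0.15, limma adjusted p = 0.752) and 0.12 in hyperplasia against GNPs (SE 0.15, limma adjusted p = 0.789). With all listed summits scaled to 30000 per library, tumors against GNPs gave 0.59 (SE 0.27, limma adjusted p = 0.167). Its promoter region, centred 777 bases upstream of the start (chr5, 25499058 to 25499893), had a median rank of 8522 in the GNP libraries, 7529 in hyperplasia and 10099 in tumors, where rank 1 is the highest score of a library. Of the 33 top summits at this gene 28 lay within 1 kb of the start.

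Crebbp (chr16, 4081334 to 4213957), an acetyltransferase and coactivator, had its most constant site inside the gene. It had 3, 3 and 5 top summits in GNPs, 3, 2 and 4 in hyperplasia, and 2, 4 and 5 in tumors, and the stages overlapped. The log2 fold change was −0.04 in tumors against GNPs (SE 0.36, limma adjusted p = 1.0). That region lay 52558 bases inside the gene (chr16, 4160551 to 4161174) and held a top summit in all 6 GNP libraries, all 6 hyperplasia libraries and 5 of 6 tumor libraries. The median rank of that region was 14455 in GNPs, 14915 in hyperplasia and 16338 in tumors over the whole lists, in which it was listed in every library. The promoter region, 836 bases upstream of the start, held a top summit in 4 of 6 GNP, 2 of 6 hyperplasia and 4 of 6 tumor libraries.

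Brpf1 (chr6, 113306863 to 113324862) encodes the scaffold of the acetyltransferase complexes built on KAT6A, KAT6B and KAT7. Its number of top summits was 2, 2 and 3 in GNPs, 2, 2 and 2 in hyperplasia, and 2, 3 and 4 in tumors. The log2 fold change in tumors against GNPs was 0.28 (SE 0.23, limma adjusted p = 0.628), and −0.07 with each chromosome's share scaled (limma adjusted p = 0.937). The promoter region, centred 431 bases upstream of the start in the table (chr6, 113306575 to 113306855), was among the highest-scoring sites of the tumor libraries.

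The rank of the Brpf1 promoter region, as the geometric mean over both libraries of a preparation, was 2472, 1359 and 673 in the 3 GNP preparations, 284, 763 and 108 in hyperplasia, and 149, 187 and 71.5 in tumors. All tumor preparations ranked it higher than all GNP preparations, and hyperplasia overlapped both. In single libraries the rank ran from 546 to 3882 in GNPs, from 78 to 1663 in hyperplasia and from 33 to 409 in tumors.

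Ranks were tested in the 6126 regions with a top summit in all libraries. The rank number of the Brpf1 promoter region was 0.0959 times as high in tumors as in GNPs, a log2 difference of −3.38 (SE 0.76, limma adjusted p = 0.00201). Of the 4 promoter regions it was the 1 that passed there, where 4.83% of common regions passed with a lower rank number and 8.72% in either direction. Hyperplasia against GNPs gave −2.20 (SE 0.76, limma adjusted p = 0.0650) and tumors against hyperplasia −1.19 (SE 0.76, limma adjusted p = 0.366). In these contrasts 0 of the 4 regions passed, against 6.99% and 4.90% of all common regions in either direction, and 2.37% and 3.12% with a lower rank number.

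Values on chromosome 6 moved with this result. In the tumor preparations 6.89% to 7.18% of the top summits lay on chromosome 6, against 5.33% to 5.49% in hyperplasia and 5.16% to 5.32% in GNPs. The median log2 rank difference in tumors against GNPs was −0.71 over the 343 common regions of chromosome 6 and 0.10 over the others. With ranks taken within each chromosome, an alternative chosen after seeing the data, the Brpf1 difference was −2.06 in tumors against GNPs (SE 0.73, limma adjusted p = 0.0725) and the call was lost. With the log2 score in place of the rank, its sign turned so that a negative value is a higher score in tumors, it was −0.59 (limma adjusted p = 0.850), where 0 regions passed in any contrast and 316 had an unadjusted p under 0.05 in tumors against GNPs. With NFIA libraries alone it was −3.19 (limma adjusted p = 0.187).

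**Figure D3:**
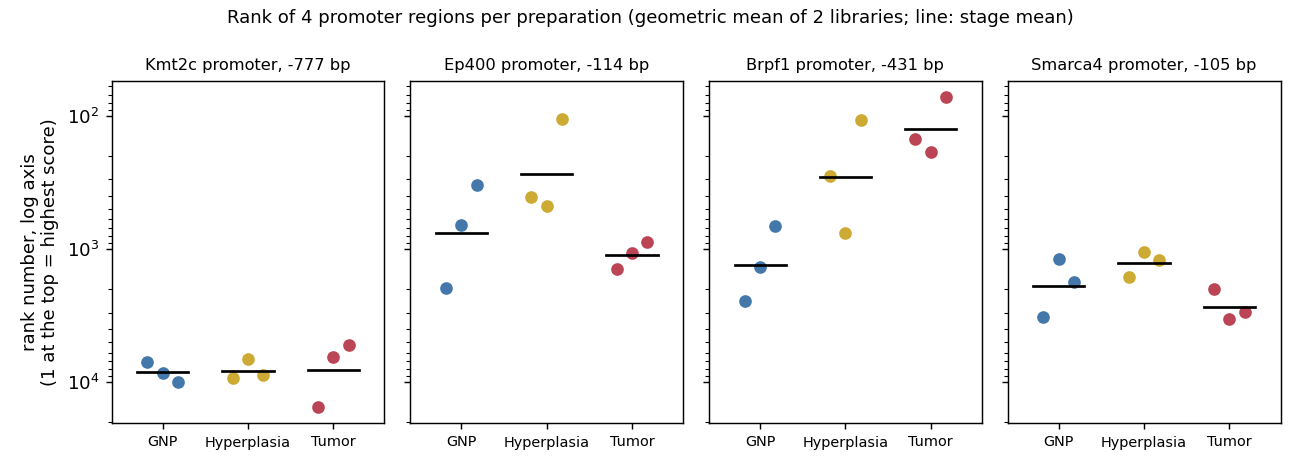
Rank number of the 4 promoter regions with a top summit in all libraries, per preparation (points, geometric mean of the NFIA and NFIB library) with the geometric mean of each stage (line), on a log axis with 1, the highest score, at the top. The 3 tumor points of Brpf1, between 71.5 and 187, lie above all 3 GNP points, which lie between 673 and 2472; the other promoters overlap between tumors and GNPs.

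Ncor1 (chr11, 62315663 to 62457414), the corepressor scaffold, had 2, 4 and 3 top summits in GNPs, 1, 1 and 2 in hyperplasia, and 0, 3 and 1 in tumors. It was below the level tested, and GNPs overlapped the other stages. With the filter dropped, the log2 fold change in tumors against GNPs was −1.30 (SE 0.65, limma adjusted p = 0.460). All 17 top summits at Ncor1 lay within 1 kb of a start. They fell in 2 neighbouring promoter regions, centred 91 and 546 bases downstream of the start at 62457332, and each held a top summit in 2 of 6 tumor libraries against 4 of 6 GNP libraries.

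Ldb1 (chr19, 46031525 to 46048145), the LIM-domain adaptor, had 1, 1 and 0 top summits in GNPs, 2, 1 and 1 in hyperplasia, and 2, 2 and 2 in tumors. Every tumor preparation was above every GNP preparation, but the mean was below the level tested. With the filter dropped, the log2 fold change in tumors against GNPs was 1.27 (SE 0.46, limma adjusted p = 0.317). With all listed summits scaled to 30000 per library the direction turned, to −0.43 in tumors against GNPs (SE 0.28, limma adjusted p = 0.318).

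The tumor summits of Ldb1 all fell in 1 region inside the gene, 2409 bases upstream of the middle of its 3 annotated starts (chr19, 46041904 to 46042481). It held a top summit in 2 of 6 GNP libraries, 1 of 6 hyperplasia libraries and 6 of 6 tumor libraries. Its rank in the whole lists was 3111 at best, 15049 at the median and 26491 at worst in tumors, against 29196, 48309 and 320757 in hyperplasia. In GNPs 5 libraries listed it, at ranks from 14427 to 91437. All 6 tumor libraries thus ranked it above all 6 hyperplasia libraries, though the best of hyperplasia, at 29196, was just inside the limit of 30000. Leaving out GNP preparation 1 or 2 leaves 4 GNP libraries and the same limit of at most 1 with a top summit. The region then also counted as gained in tumors against GNPs, as did 1464 and 1411 of all 41998 regions in the same order. A region at the start itself (chr19, 46039500 to 46039823) held a top summit in 0 of 6 GNP, 3 of 6 hyperplasia and 0 of 6 tumor libraries.

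Regions were counted as gained in the later stage with a top summit in at least 5 of its 6 libraries and at most 1 of 6 of the earlier stage, and as lost in the opposite case. Of the 15 regions at the 8 genes, 1 was gained and 1 lost in hyperplasia against GNPs, where 2.15% of all regions were gained and 2.78% lost. In tumors against GNPs 1 was gained and 0 lost, against 2.28% and 2.52% of all regions. In tumors against hyperplasia 2 were gained and 0 lost, against 1.20% and 1.08%. These 3 regions are the inner ones of Ep400, Smarca4 and Ldb1. With 6 of 6 against 0 of 6 libraries required, 0 of the 15 remained in any contrast. With the top 15000 summits the Smarca4 region in tumors against hyperplasia was the only call at these genes. There 346 of all 22916 regions were gained in that contrast. With all listed summits in place of the top 30000, none of the 3 was called. A region at the start of Kmt2d (chr15, 98870750 to 98871371) was then lost in tumors against GNPs and against hyperplasia. Under that setting 1639 and 990 of all 152858 regions were lost in these contrasts. When a preparation was left out, its stage kept 4 libraries and the criterion became 3 of these 4, which is easier to meet. Under it an Ncor1 promoter region (chr11, 62456629 to 62457065) counted as lost in hyperplasia against GNPs without GNP preparation 1 or 2. Of all 41998 regions, 2185 and 2207 were lost there in the same order. The Kmt2d region upstream of the start (chr15, 98872029 to 98872531) counted as lost in both later stages against GNPs without GNP preparation 3. In that case 2161 of all regions were lost in hyperplasia and 2041 in tumors.

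Ep400 (chr5, 110664373 to 110770927), the TIP60 complex ATPase that exchanges histone variants, had 2, 2 and 2 top summits in GNPs, 4, 4 and 4 in hyperplasia, and 4, 4 and 4 in tumors. Hyperplasia and GNPs did not overlap, nor did tumors and GNPs. The log2 fold change was 0.85 both in hyperplasia against GNPs (SE 0.09, limma adjusted p = 0.0313) and in tumors against GNPs (SE 0.09, limma adjusted p = 0.0172). Counts did not vary within a stage, so this SE comes from the spread that limma shares across genes and not from Ep400. The equal sums hid unequal libraries: in tumor preparation 3 the NFIA library had 3 top summits and the NFIB library 1. On each of the 2 title dates that GNPs and hyperplasia share, hyperplasia preparations had 4 summits and GNP preparations 2. With date as a term the log2 fold change stayed at 0.85 and the limma adjusted p was 0.150. Leaving out 1 preparation at a time kept the call in 2 of 9 cases for hyperplasia (limma adjusted p 0.0461 to 0.0761) and in 5 of 9 for tumors (0.0244 to 0.0677), with a log2 fold change of 0.85 in each.

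The difference at Ep400 was a second site. Every library had a summit at the promoter (the first sequence above). Of the 6 inner top summits in hyperplasia 5, and of the 6 in tumors 6, lay in a region near the 3′ end of the gene, 104901 bases from the start and 2797 bases from the neighbouring gene Ddx51 (chr5, 110665614 to 110666121). It held a top summit in 0 of 6 GNP, 5 of 6 hyperplasia and 5 of 6 tumor libraries. In the whole lists its rank was 10480 at best, 18547 at the median and 47847 at worst in hyperplasia, and 8421, 22720 and 33917 in tumors. In GNPs 3 libraries listed it, at ranks from 31995 to 47295, and 3 did not. The best GNP rank, 31995, was just outside the limit, and it overlapped the ranks of both later stages.

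The count at Ep400 depended on that limit. With the top 15000 summits the log2 fold change of Ep400 was 0.44 in hyperplasia against GNPs and 0.32 in tumors against GNPs. With all listed summits scaled to 30000 per library it was 0.08 and 0.11 in the same order, and the call was lost under both settings. A second random breaking of ties gave 0.94 in hyperplasia against GNPs (limma adjusted p = 0.0576) and kept the call in tumors against GNPs (0.85, limma adjusted p = 0.0474). With NFIA libraries alone the values were 0.74 in hyperplasia (limma adjusted p = 0.176) and 0.90 in tumors (limma adjusted p = 0.101) against GNPs. With NFIB libraries alone they were 0.74 (limma adjusted p = 0.265) and 0.49 (limma adjusted p = 0.407), so neither target alone gave a call.

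The promoter region of Ep400 ranked among the best sites in each stage, with a geometric mean rank of 1947, 666 and 332 in the GNP preparations, 406, 472 and 105 in hyperplasia, and 1425, 1074 and 884 in tumors. All 3 tumor preparations ranked it below all 3 hyperplasia preparations, and GNPs overlapped both. The log2 rank difference was 2.02 in tumors against hyperplasia (SE 0.72, limma adjusted p = 0.0819), which missed the threshold, and −1.47 in hyperplasia against GNPs (SE 0.72, limma adjusted p = 0.217).

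Smarca4 (chr9, 21616106 to 21704230) encodes BRG1, the ATPase of the BAF complex. It had 5, 5 and 4 top summits in GNPs, 3, 3 and 2 in hyperplasia, and 4, 7 and 6 in tumors. Every hyperplasia preparation was below every preparation of the other stages. The log2 fold change was −0.72 in hyperplasia against GNPs (SE 0.23, limma adjusted p = 0.240) and 0.95 in tumors against hyperplasia (SE 0.23, limma adjusted p = 0.222), so neither passed the test over all genes. With all listed summits scaled to 30000 per library both directions turned, to 0.16 in hyperplasia against GNPs (limma adjusted p = 0.836) and −0.31 in tumors against hyperplasia (limma adjusted p = 0.776).

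The promoter region of Smarca4 (the second sequence above) was among the better sites in each stage. Its geometric mean rank was 3227, 1185 and 1762 in the GNP preparations, 1623, 1052 and 1216 in hyperplasia, and 1999, 3352 and 2992 in tumors. All 3 tumor preparations ranked it below all 3 hyperplasia preparations, and GNPs overlapped both. The log2 rank difference was 1.09 in tumors against hyperplasia (SE 0.60, limma adjusted p = 0.276), which missed the threshold, and 0.52 in tumors against GNPs (SE 0.60, limma adjusted p = 0.651).

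The stage pattern of Smarca4 lay at an inner region 23110 bases from the start (chr9, 21638998 to 21639439), which was listed in all 18 libraries. It held a top summit in 5 of 6 GNP libraries, 1 of 6 hyperplasia libraries and 6 of 6 tumor libraries. Its rank in the whole lists was 8193 at best, 20052 at the median and 106971 at worst in GNPs, 18834, 67076 and 95223 in hyperplasia, and 3268, 4666 and 13249 in tumors. All tumor libraries ranked it above all hyperplasia libraries.

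The ranks of this region were tested in the whole lists, in the 12142 regions listed in all 18 libraries. That test was added after its counts had been seen and rests on the same summits, so it is not independent support. The geometric mean rank was 14543, 16663 and 44331 in the GNP preparations, 40185, 72772 and 63212 in hyperplasia, and 3373, 7529 and 6595 in tumors. The rank number was 0.0968 times as high in tumors as in hyperplasia, a log2 difference of −3.37 (SE 0.51, limma adjusted p = 0.000228), and lower in 3 of 3 tumor preparations. Tumors against GNPs gave −2.001 (SE 0.51, limma adjusted p = 0.00933), and hyperplasia against GNPs 1.37 (SE 0.51, limma adjusted p = 0.0914).

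Among the 6 regions of the 8 genes in that test, 1 passed with a lower rank number in tumors against hyperplasia, where 2.96% of all did and 4.29% passed in either direction. In tumors against GNPs 2 did, this region and the Brpf1 promoter, where 5.30% of all did and 8.96% passed in either direction. In hyperplasia against GNPs 0 passed, where 7.72% of all passed in either direction and 2.79% with a lower rank number. The difference between tumors and hyperplasia ran from −3.62 to −3.02 when each preparation was left out, and passed in all 9 cases, but not with NFIA libraries alone (−3.36, limma adjusted p = 0.0849). The call against GNPs was lost without GNP preparation 3 (−1.50, limma adjusted p = 0.116), without tumor preparation 1 (−1.65, limma adjusted p = 0.0612) and with either target alone. Without GNP preparation 3, hyperplasia against GNPs passed (1.87, limma adjusted p = 0.0416).

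**Figure D4:**
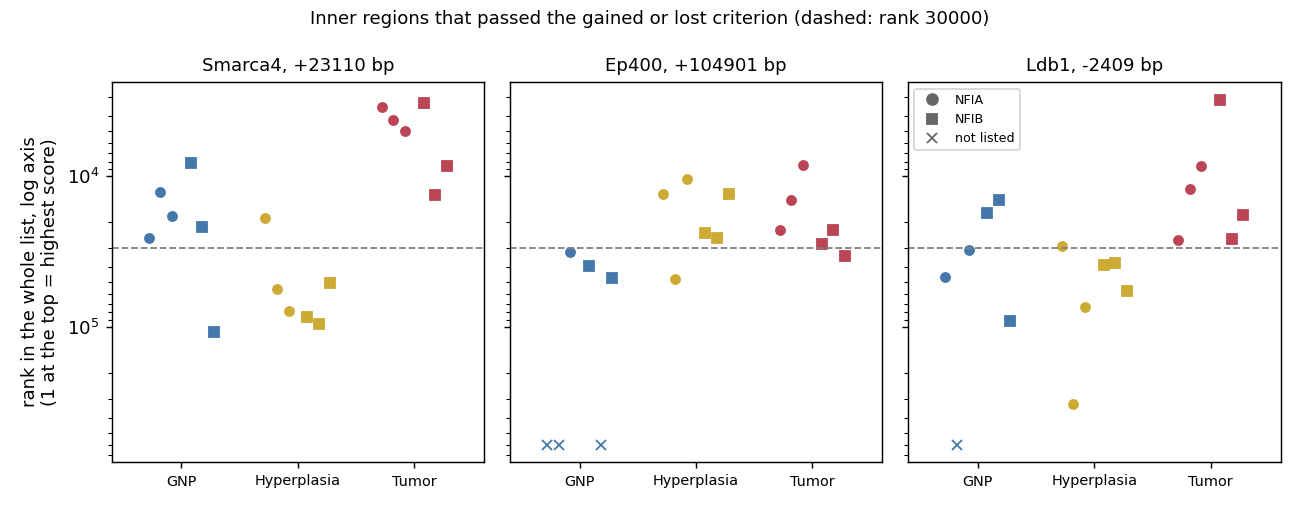
Rank in the whole list of the inner regions of Smarca4, Ep400 and Ldb1 in each library (circles NFIA, squares NFIB) by stage, on a log axis with the highest scores at the top; the dashed line is rank 30000 and crosses at the bottom are libraries that do not list the region. The 6 tumor libraries of Smarca4, from 3268 to 13249, lie above the 6 hyperplasia libraries, from 18834 to 95223.

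Both targets had top summits at each of the 8 genes. Smarca4 had 22 top summits in the 9 NFIA libraries and 17 in the 9 NFIB libraries, Kmt2c 18 and 15, Ep400 16 and 14, Crebbp 14 and 17, Brpf1 10 and 12, Ncor1 6 and 11, Kmt2d 7 and 7, and Ldb1 6 and 6. The targets were not tested against each other, because of the conflicting data names.

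Genes of the same complexes showed no call. Of 104 partner genes in 7 lists 69 were tested, and 0 passed limma's adjusted p of 0.05 in any contrast, where 0.175%, 0.244% and 0.0582% of all genes passed in hyperplasia against GNPs, tumors against GNPs and tumors against hyperplasia. An unadjusted p under 0.05 was found for 5, 9 and 7 of the 69 in these contrasts, against 13.4%, 14.8% and 11.3% of all tested genes. The median log2 fold change of the 69 was 0.00 in each, as over all genes.

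The TIP60 and SRCAP list, the partners of EP400, held the gene with the largest change in tumors against GNPs of all 7 lists. Yeats4, a reader of acetylated histones in these complexes, had 0, 1 and 1 top summits in tumors against 3, 5 and 5 in GNPs, with no overlap (log2 fold change −2.19 against GNPs, limma adjusted p = 0.0927). Ruvbl1, a helicase shared by the complexes, lies on chromosome 6 and had 6, 7 and 8 in tumors against 4, 5 and 4 in GNPs (0.63, limma adjusted p = 0.131). In this list of 11 tested genes the fitted change in tumors against GNPs was above 0 in 5 and below 0 in 5.

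Setd2, a histone H3 methyltransferase, had 4, 4 and 5 top summits in tumors against 2, 2 and 2 in GNPs (log2 fold change 0.94, limma adjusted p = 0.0600), and Kdm4c, a histone demethylase, 3, 4 and 3 against 1, 5 and 2 (0.47, limma adjusted p = 0.650). These 2 had the largest changes among 9 tested further chromatin genes mutated in medulloblastoma. In the LDB1 list of 10 tested genes they were Lmo3, a LIM-only protein encoded on chromosome 6, with 4, 5 and 5 in tumors against 2, 1 and 4 in GNPs (1.00, limma adjusted p = 0.425), and Lhx5, a LIM-homeodomain factor, with 8, 1 and 4 against 7, 7 and 7 (−0.96, limma adjusted p = 0.472). The groups overlapped at each of the last 3 genes.

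In the COMPASS list of 10 tested genes, the complexes of KMT2 proteins, the leading genes were the shared subunit Ash2l, with 2, 3 and 0 in tumors against 3, 3 and 3 in GNPs (−1.10, limma adjusted p = 0.640), and Pagr1a, with 1, 2 and 1 against 2, 2 and 3 (−0.65, limma adjusted p = 0.298). In the list of 10 tested acetyltransferases and readers, the acetyltransferase gene Kat7 had 2, 3 and 4 in tumors against 3, 4 and 4 in GNPs (−0.28, limma adjusted p = 0.640). The groups overlapped at each of these 3 genes.

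Among 7 tested corepressor genes the leading ones were the deacetylase genes Hdac4, with 31, 29 and 27 in tumors against 19, 24 and 23 in GNPs (0.40, limma adjusted p = 0.245), and Hdac2, with 4, 4 and 6 against 3, 5 and 3 (0.32, limma adjusted p = 0.585). Among 12 tested BAF genes they were Bcl7c, with 4, 6 and 8 against 8, 1 and 3 (0.83, limma adjusted p = 0.559), and Smarca2, the paralog of Smarca4, with 9, 12 and 9 against 9, 7 and 4 (0.60, limma adjusted p = 0.387). Hdac4 was higher in 3 of 3 tumor preparations than in every GNP preparation, and the other 3 overlapped.

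For 4 of the tested genes the most similar profile over the 9 preparations was sought among all tested genes, as the smallest root-mean-square distance of centred log2(summits + 0.5). It was Slc5a6 for Kmt2c (distance 0.0579), C1qtnf1 for Crebbp (0.114), Noxa1 for Brpf1 (0.114) and Cox8a for Smarca4 (0.192). With so few summits per gene, such likeness is a description of small whole numbers.

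The libraries listed 49948 to 385466 summits, and read depth is unknown. The second NFIA library of hyperplasia had the most tied scores, with 20.4% of its top summits at the score of the last one kept. Of the granule progenitor markers 10 of 10 had a top summit in every preparation, and their summed count was 109 to 122 in GNPs, 85 to 97 in hyperplasia and 105 to 112 in tumors. Of 5 microglia markers 1 had one in every preparation, with sums of 2 to 4, 3 to 7 and 3 to 5 in the same order. Oligodendrocyte markers had one in every preparation for 5 of 5 genes, so this was not particular to granule progenitors. It also held for 4 of 6 astrocyte and Bergmann glia, 3 of 5 vascular and meningeal, and 2 of 6 Purkinje cell and interneuron markers. Astrocyte and Bergmann glia markers summed to 24 to 35, 29 to 40 and 22 to 32, oligodendrocyte markers to 30 to 36, 26 to 39 and 32 to 33, vascular and meningeal markers to 12 to 19, 9 to 12 and 17 to 20, and Purkinje cell and interneuron markers to 9 to 12, 8 to 12 and 10 to 12. Summits show where NFI was detected and not whether a gene is expressed, and the part of other cells in the results was not tested.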

How the data were processed

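The submitters' processing notes name Bowtie2, MACS2 and mm10 for the CUT&Tag libraries. The deposited summit lists give 1 position and a −log10 score per peak and library, computed by the authors; whether it is a p or a q value, and which versions and settings were used, no source used here gives. The libraries held no columns of other samples. Deposited data names carry another target than the sample labels in 6 of 18 libraries and another replicate number in 12; each file was used under the sample it is deposited with.

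The top 30000 autosomal summits per library (ties at the last score broken with a fixed seed) went to the nearest RefSeq protein-coding span within 100 kb. Python 3.11.15, pandas 2.3.3, numpy 2.4.6, R 4.3.3 and limma 3.58.1 were used, and fits were tested on simulated data. Simulated gene changes were placed only in genes averaging more summits than any of the 8 genes. Changes at counts as low as theirs were not simulated. Summits per gene and preparation were fitted as log2(summits + 0.5) over all 9 preparations, for genes with a mean of at least 2, and ranks as log2. P-values were adjusted by Benjamini-Hochberg over all genes or regions. Named genes are the 8 genes, the nearest profile of each tested one, and from each partner list the genes past the threshold and the 2 with the largest change in tumors against GNPs; 2 genes that this rule names are not reported here. Genes and lists were chosen with earlier results of these data known. All 8 genes matched the RefSeq tables by symbol. The alternatives tried are given at the end, with the correlations of same-numbered preparations.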

Additional observations from a re-analysis of the deposited data

How the results depend on the processing

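Genes passing in hyperplasia against GNPs, tumors against GNPs and tumors against hyperplasia numbered 15, 21 and 5. They numbered 43, 46 and 10 with the top 15000 summits, 83, 124 and 41 with no filter on low values, and 55, 63 and 17 with NFIB libraries alone. NFIA libraries alone gave 25 in the first contrast and 10 in the last. The first contrast gave 2 with a second seed for ties, 3 with a pseudocount of 2, 2 with title date as a term, 8 with each chromosome's share scaled, which gave 1 in the last, and 0 with all listed summits scaled to 30000 (limma, 695 at an unadjusted p under 0.05), which gave 314 in the second. Assignment within 10 kb gave 48 in the second and 0 in the last (limma, 790 at an unadjusted p under 0.05). Without the second NFIA library of hyperplasia the last 2 contrasts gave 39 and 8. Leaving out each preparation gave 1 to 10, 1 to 25 and 1 to 6.

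Common regions with a changed rank numbered 428, 534 and 300. They numbered 81, 335 and 48 by share of the whole list, 44, 43 and 7 with NFIA and 111, 194 and 60 with NFIB libraries alone, and 0, 0 and 0 by log2 score (limma, 241, 316 and 71 at an unadjusted p under 0.05). Leaving out each preparation gave 231 to 533, 299 to 568 and 73 to 353.

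Gained regions numbered 905, 957 and 506, and lost ones 1167, 1058 and 452. With 6 of 6 against 0 of 6 libraries there were 159, 172 and 45 gained and 193, 153 and 29 lost. The top 15000 summits gave 525 and 587 gained in the first 2 contrasts and 730, 628 and 293 lost, and all listed summits 2052 and 1627 gained in them, and 1639 and 990 lost in the last 2. With the NFIA library of hyperplasia preparation 2 left out, and 4 of its stage's other 5 libraries sufficient, 1526 were gained in the first and 930 lost in the last. Leaving out each preparation, which also changes the criterion to 3 of the 4 libraries left in that stage, gave 905 to 2217, 957 to 2234 and 506 to 1522 gained, and 1167 to 2207, 1058 to 2145 and 452 to 1534 lost. The promoter share of 63.1% was 43.9% at 500 bp and 24.7% for all listed summits.

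With the replicate block, 0, 1 and 1 genes passed (limma, 1173 at an unadjusted p under 0.05 in the first contrast) and 783, 875 and 730 common regions. Correlations of same-numbered preparations, as deviations from their stage means, were 0.000333 to 0.0803. All were small and positive. They were not set against differently numbered preparations, so whether the numbers pair preparations was not tested. Under the block the adjusted p of Ep400 was 0.168 and 0.101 against GNPs in hyperplasia and tumors, with the log2 fold change still 0.85 in both, that of the Brpf1 promoter 0.00762 in hyperplasia against GNPs, and that of the Ep400 promoter 0.0129 in tumors against hyperplasia.

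Ep400 lost its call in 16 of 22 alternatives in hyperplasia against GNPs (adjusted p 0.0223 to 0.942) and in 10 of 21 in tumors against GNPs (0.0147 to 0.830). No gene or region of the 8 genes reversed a called direction in any alternative run. Longer-span assignment, ranks within chromosomes and whole-list ranks were chosen after seeing the data. Read depth is unknown, so intervals from counts could not be given.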
